A study of Mus musculus with 6 samples.

Results

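Genes for the proteins of the cytosolic ribosome were examined in macrophages that lack the transcription factor c-Maf and in wild-type macrophages. The members were found by name among the array probes: symbols that begin with Rpl or Rps and a number, the 3 stalk proteins Rplp0, Rplp1 and Rplp2, and Rpsa, without S6 kinases and annotated pseudogenes. This gave 86 genes with 194 probes, and each gene was represented by its probe of highest mean signal. Of these, 84 genes were well above background on at least 2 arrays and entered the test with 20267 features in all. The 2 genes that did not, Rpl3l and Rpl10l, were not well above background on any array used.

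The cells were M2-like macrophages of mice, grown from single-cell suspensions in medium with M-CSF (macrophage colony-stimulating factor) at 10 ng/ml, added daily from day 4. M-CSF is the only cytokine the labels name. The c-Maf KO group (3 samples) came from mice that had received c-Maf KO fetal liver cells, and the WT group (3 samples) from mice given WT fetal liver cells. The series compares them for the genes that c-Maf controls in macrophages. The labels give the tissue as liver and call the cells BMM, and the protocol names both fetal liver and bone marrow cells. The deleted part of the gene, the mouse strain, the age and the share of cells left from the host are not given in the sources used here. Nothing says whether the replicates came from separate mice, so p-values describe the spread of these 6 samples alone, which could be technical. RNA was hybridised to 1-colour Agilent arrays. Each value is the log2 ratio of a sample to the probe's median over the 6 samples, and each difference is c-Maf KO minus WT on that log2 scale. A feature was called at a Benjamini-Hochberg adjusted p under 0.05 in limma, over all 20267 features.

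Maf, the targeted gene, measured -2.22, -2.36 and -1.92 in the c-Maf KO samples, against 1.92, 1.98 and 2.03 in the WT samples. The difference was -4.14 (SE 0.12, adjusted p = 0.000561), and the groups lay far apart. On the 5 arrays with a scanner file, 48.9% to 50.6% of probes were well above background, no probe was saturated and the 75th percentile of intensity lay between 411 and 495. All 9 macrophage markers were detected (median difference -0.19), with 8 negative and 1 positive, and none was called. In 4 of the 9, all c-Maf KO values lay below all WT values (8.87% of all features). In 1 they lay above (11.1%). Over all features, 9998 of 20267 were negative. Of 11 stromal markers, 10 were detected and all 10 were higher in c-Maf KO on average (median difference 0.89). Their medians were 0.14, 0.25 and 0.49 in the c-Maf KO samples and -0.10, -0.91 and -0.70 in the WT samples. For 7 of these 10, all c-Maf KO values lay above all WT values, and for 0 below (11.1% and 8.87% of all features). The part of stromal cells in the results below was not tested. In cultures, a change in the number of cells and a change in RNA per cell cannot be told apart, and array values scaled to a percentile do not show a change in total RNA.

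The cytosolic ribosome joins a small subunit, which decodes mRNA, and a large subunit, which forms the peptide bond. Nearly every ribosomal protein is made from one gene in strict proportion to the others. Their mRNAs begin with a cytosine and a run of pyrimidines, the 5′ terminal oligopyrimidine (TOP) motif, through which mTOR and Larp1 control their translation, while Myc drives the transcription of many genes of ribosome production. Growth factors such as M-CSF act on this machinery, and c-Maf itself binds Maf recognition elements in DNA as a basic leucine zipper factor.

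None of the 84 ribosomal protein genes was called, where 0.0345% of all features were (7 of 20267). At an unadjusted p under 0.05 the count was also 0 of 84, against 12.6% of all features. The median difference of the 84 genes was 0.015, against 0.0018 over all features, with 53 genes positive and 31 negative. The middle of the distribution was narrow: the quartiles were -0.016 and 0.042 for the ribosomal protein genes and -0.10 and 0.093 for all features. The 5 arrays with scanner files gave 0 of 84 at an adjusted p under 0.05 (0.0345% of features) and 0 of 84 at an unadjusted p under 0.05 (11.1%), with a median difference of -0.016.

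These genes were measured with less spread than most. The median SD within groups was 0.068 for the ribosomal protein genes and 0.11 for all features. The 95% interval of the difference lay wholly within 1.2-fold in either direction for 74 of 84 genes (88.1%), against 33.3% of all features. It lay within 1.5-fold for 82 of 84, against 77.3%, the exceptions being Rpl39l and Rps7. No member had an interval within 1.1-fold, so a difference of that size was not detectable for any of them.

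**Figure D1:**
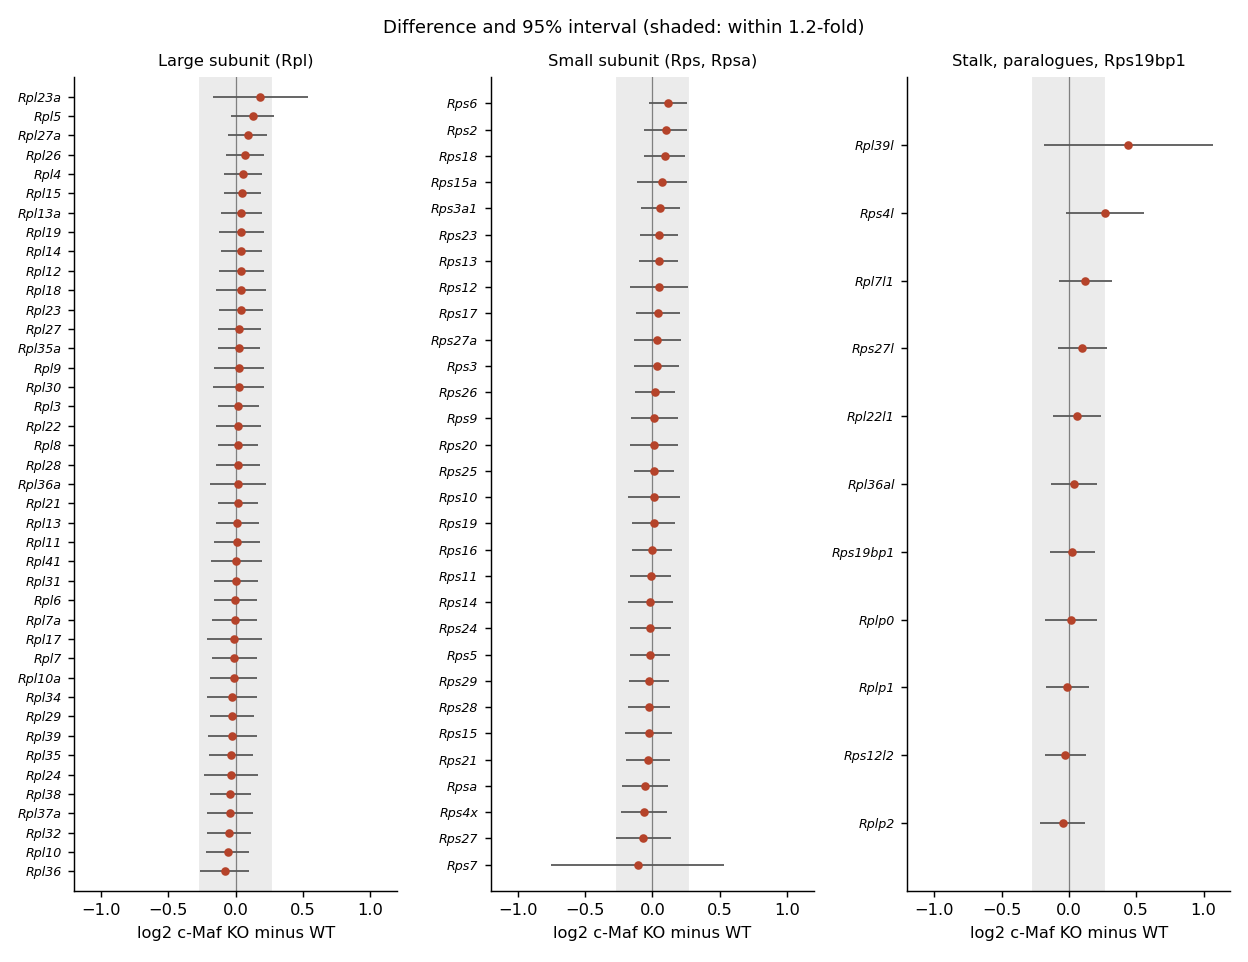
Differences between c-Maf KO and WT (log2, x axis) for single genes in rows, with points for the estimates and bars for the 95% intervals of limma, 3 samples per group. Every interval crosses 0, and most stay inside the shaded 1.2-fold band.

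The large subunit was represented by 42 genes, of which 27 had a positive and 15 a negative difference, with a median of 0.016. Rpl5, which with Rpl11 and 5S rRNA forms a particle that can also bind the p53 regulator Mdm2, measured 0.040, 0.18 and 0.028 in c-Maf KO samples, against -0.038, -0.060 and -0.028 in WT samples. The 3 c-Maf KO values of Rpl5 lay above the 3 WT values, at a difference of 0.13 (SE 0.065, adjusted p = 0.476). Its partner Rpl11 had 0.040, 0.045 and -0.11 in c-Maf KO and -0.062, 0.032 and -0.032 in WT. The Rpl11 groups overlapped, at a difference of 0.011 (95% interval -0.16 to 0.18).

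Rpl10, one of the last proteins to join the large subunit, had -0.0038, 0.0038 and -0.098 in c-Maf KO samples, against 0.085, 0.042 and -0.051 in WT samples. Its groups overlapped, at a difference of -0.058 (SE 0.065, adjusted p = 0.732). Rpl36 had the most negative difference of the large subunit, at -0.083 (95% interval -0.27 to 0.10). Rpl35 and Rpl37a, whose probes were among the 6 with the highest signals, had differences of -0.035 and -0.044. Rpl3, at the peptidyl transferase centre, and Rpl39, at the exit tunnel, had differences of 0.020 and -0.027.

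Other large-subunit genes with roles beyond bulk translation did not stand apart. Rpl38, required in mouse embryos for the translation of some Hox mRNAs, had a difference of -0.041 (95% interval -0.19 to 0.11). Rpl13a, which in human monocytic cells leaves the ribosome to silence inflammatory mRNAs after interferon-γ, had 0.042 (95% interval -0.11 to 0.19) at its brightest probe. Rpl22, whose loss in mice impairs αβ T cell development, had 0.019, and Rpl10a, Rpl32 and Rpl7 had -0.016, -0.048 and -0.011.

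The 3 stalk genes encode the acidic proteins that recruit translation factors to the large subunit. Rplp0 measured 0.067, 0.054 and -0.15 in c-Maf KO samples, against -0.0016, 0.0016 and -0.076 in WT samples. Rplp1 had -0.011, 0.011 and -0.11 in c-Maf KO and 0.013, 0.014 and -0.096 in WT. Rplp2 had 0.042, -0.027 and -0.14 in c-Maf KO, against -0.041, 0.027 and 0.032 in WT. In all 3 the groups overlapped and c-Maf KO replicate 3 was the lowest sample, with differences of 0.015, -0.014 and -0.046.

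The small subunit had 31 genes, 18 positive and 13 negative, with a median difference of 0.013. Rps6, the substrate of the S6 kinases downstream of mTOR, measured 0.012, 0.096 and 0.048 in c-Maf KO samples, against -0.012, -0.069 and -0.11 in WT samples. The Rps6 groups did not overlap, at a difference of 0.12 (SE 0.058, adjusted p = 0.471). A second Rps6 probe also kept the groups apart, at 0.13, and the dimmest one had 0.034 with overlap. Rpl5 and Rps6 were the 2 of 84 genes whose groups lay apart with c-Maf KO higher, where 11.1% of all features did so. No member lay apart with c-Maf KO lower, against 8.87% of all features. On the 5 arrays these counts were 3 higher (14.1% of features) and 3 lower (16.1%).

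Rps14 and Rps19, whose loss of one copy causes failure of red cell production in humans, had differences of -0.014 (95% interval -0.18 to 0.16) and 0.012 (-0.15 to 0.17). Rpsa, which on the cell surface was described as a laminin receptor, had 0.0084, 0.0045 and -0.17 in c-Maf KO samples, against -0.015, 0.028 and -0.0045 in WT samples. Its groups overlapped, at -0.054 (SE 0.069). Rps4x, which is X-linked, had -0.062. Rps27a, made as a fusion with ubiquitin, had a difference of 0.036, and Rps27 had -0.068. The 4 Rps27 probes are mapped in mm9 to chromosome 9, while the gene lies on chromosome 3. All 3 Rps29 probes likewise map to chromosome 2, not to chromosome 12 where the gene lies. For these genes the signal of near-identical copies cannot be told apart from that of the gene.

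Rps7 had the most negative difference of the 84 genes, -0.11 (SE 0.26, 95% interval -0.75 to 0.53, adjusted p = 0.885), and it rested on 1 sample. Its only probe measured 0.15, 0.22 and -0.76 in the c-Maf KO samples, against 0.016, -0.016 and -0.070 in the WT samples. Thus 2 c-Maf KO samples were above and 1 far below all WT samples. The probe (mm9 chr12:29319087-29319146, minus strand) is shown because its reading in that one sample sets the value.
Rps7 probe: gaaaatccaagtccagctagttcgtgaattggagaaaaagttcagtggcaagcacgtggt

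The same kind of single low reading occurred in WT. Rpl23a, a large-subunit protein beside the exit of the nascent chain, measured 0.12, 0.11 and -0.11 in c-Maf KO samples, against -0.061, -0.43 and 0.061 in WT samples at its brightest probe. That gave a difference of 0.18 (SE 0.14, adjusted p = 0.621), the most positive in the large subunit. The adjoining probe had 0.079, 0.062 and -0.071 in c-Maf KO, against -0.0016, -0.030 and 0.0016 in WT, a difference of 0.033. The low WT replicate 2 value was thus in the first probe and not in its neighbour. The 2 probes abut on the minus strand of mm9 chromosome 11 (chr11:77994946-77995005 and chr11:77995006-77995065), and they are printed because they give the same transcript 2 differences.
Rpl23a probe 1: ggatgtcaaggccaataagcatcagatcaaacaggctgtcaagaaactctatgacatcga
Rpl23a probe 2: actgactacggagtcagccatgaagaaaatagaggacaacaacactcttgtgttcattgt
Rps12 had such a reading too, in WT replicate 1, at -0.21 in its brightest probe and -0.0050 in its second probe. Rps12, Rps7, Rpl23a, Rpl36 and the Rps29 probes were chosen for mention after their values were seen.

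Among the members, 9 carry the names of paralogues of a core ribosomal protein and 1, Rps19bp1, encodes a nucleolar partner of Rps19 and of the deacetylase Sirt1, not a ribosomal protein. The 7 paralogues that were detected had a median difference of 0.10, with 6 positive and 1 negative. Rpl39l, known from testis, measured -0.10, 0.14 and 0.30 in c-Maf KO samples, against -0.24, 0.10 and -0.86 in WT samples. Its groups overlapped, and the difference of 0.44 (SE 0.26, 95% interval -0.18 to 1.07, adjusted p = 0.523) was the most positive of all members. Rps4l had 0.43, -0.0020 and 0.19 in c-Maf KO, against 0.0020, -0.065 and -0.12 in WT. Its difference of 0.27 (SE 0.12, adjusted p = 0.421) had the lowest adjusted p of the 84 genes, and its groups overlapped by 1 pair of values. Both had low signals, 514 for Rpl39l and 682 for Rps4l, where the probes of the core genes lay between 33704 and 271316. Signals of different probes do not give the order of mRNA amounts.

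Rps27l, a p53 target, had 0.033, 0.15 and -0.030 in c-Maf KO samples, against 0.030, -0.11 and -0.070 in WT samples. The groups overlapped by 1 pair of values, at a difference of 0.10 (SE 0.073, adjusted p = 0.593). Rpl22l1, which can take the place of Rpl22, had a difference of 0.057, and Rpl7l1 had 0.12 (SE 0.080, adjusted p = 0.567). The signal of Rpl7l1, 414, was the lowest of the 84 genes. The paralogues with signals this low, Rpl39l, Rps4l and Rpl7l1, also had the most positive differences among the 7 detected. Rps12l2, whose probes map to chromosome 8 and which has no entry in the RefSeq table used, had -0.027. Rps19bp1 had 0.026 (95% interval -0.14 to 0.20). Rpl3l, known from muscle, and Rpl10l, from testis, were not well above background in any of the 5 arrays, so no difference is given for them.

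The genes varied together between samples. The medians of the 84 genes were 0.045, 0.045 and -0.098 in c-Maf KO replicates 1 to 3, against -0.018, 0.0078 and -0.013 in WT replicates 1 to 3. In c-Maf KO replicate 3, 80 of 84 genes were below 0, and this sample was the lowest of the 6 for 63 of 84 genes, against 5066 of 20267 features. The highest sample was c-Maf KO replicate 1 for 34 genes and c-Maf KO replicate 2 for 33. With c-Maf KO replicate 3 lowest, replicate 1 was highest for 25 genes and replicate 2 for 23, so the WT samples lay between the c-Maf KO samples in these genes. The correlation of each gene with the median of the other members over the 6 samples had a median of 0.86, and 54 of 84 (64.3%) were over 0.8. Of the 20183 other features, 6.63% were over 0.8 against the members' median. Among these other features, 19215 were dimmer than every core gene, and no share was worked out for the brighter ones alone. These points share arrays and scaling, and the correlations are a description.

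**Figure D2:**
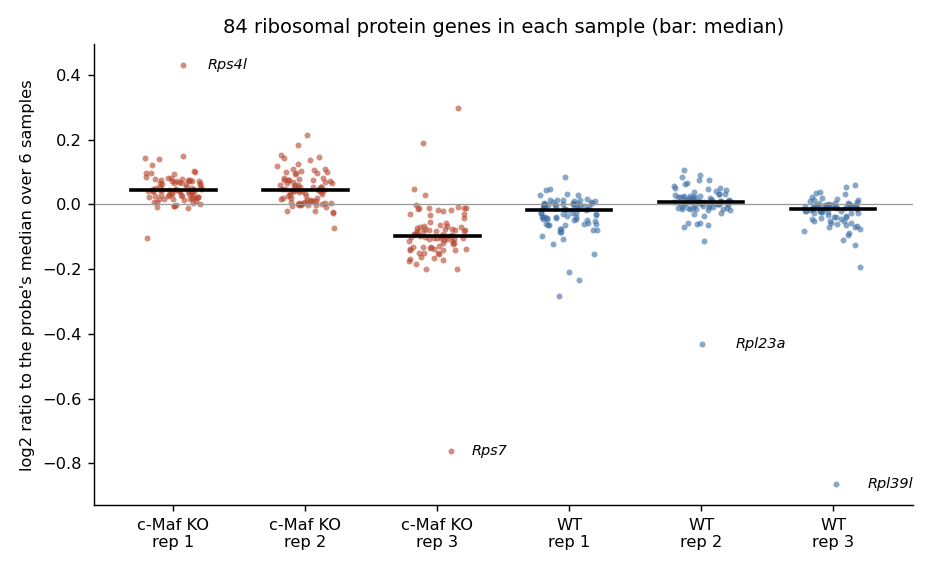
Log2 ratio to the probe's median over 6 samples (y axis) for 84 genes in each sample, with 1 point per gene and a bar for the median. The median of c-Maf KO replicate 3 is -0.098, below the 5 other samples, and the Rps7 point at -0.76 lies far below the rest of that sample.

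The difference between genotypes therefore depended on that sample. Without c-Maf KO replicate 3, 49 of 84 genes had both remaining c-Maf KO values above all WT values, against 23.6% of all features and 45.1% of the 968 other features as bright as the core genes. The median difference was then 0.065, against 0.025 over all features. No member was called in that setting either. Without c-Maf KO replicate 1 the median difference was -0.014, and without c-Maf KO replicate 2 it was -0.012.

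Signal and scaling moved with this pattern. The scan of c-Maf KO replicate 3 had the highest 75th percentile of intensity, 495, against 436 for c-Maf KO replicate 2 and 411 to 448 for the WT arrays. Before scaling, the median signal of the members was also highest in that scan, at 112215. It was 105994 for c-Maf KO replicate 2 and 100254 to 106834 for the WT arrays. The low values of c-Maf KO replicate 3 are thus low relative to the percentile of its array. The 968 other features as bright as the core genes had medians of 0.053, 0.034 and -0.063 in c-Maf KO samples, against -0.0055, 0.0098 and -0.020 in WT samples. For 53.2% of them c-Maf KO replicate 3 was the lowest sample, against 23.4% of the 19215 dimmer features. After quantile normalization the medians of the 84 genes were -0.013, 0.030 and -0.011 in c-Maf KO samples and -0.010, -0.00072 and 0.013 in WT samples. In that scaling c-Maf KO replicate 3 was the lowest sample for 27 of 84 genes, and no member was called. With each column centred on its median over all features, that sample stayed the lowest for 54 of 84 genes, with a median of -0.076. The low values of that sample were thus smaller where the distributions of the arrays were equalised, and nearly as low where only their centres were. Amounts of mRNA and the brightness of the scan cannot be told apart here.

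**Figure D3:**
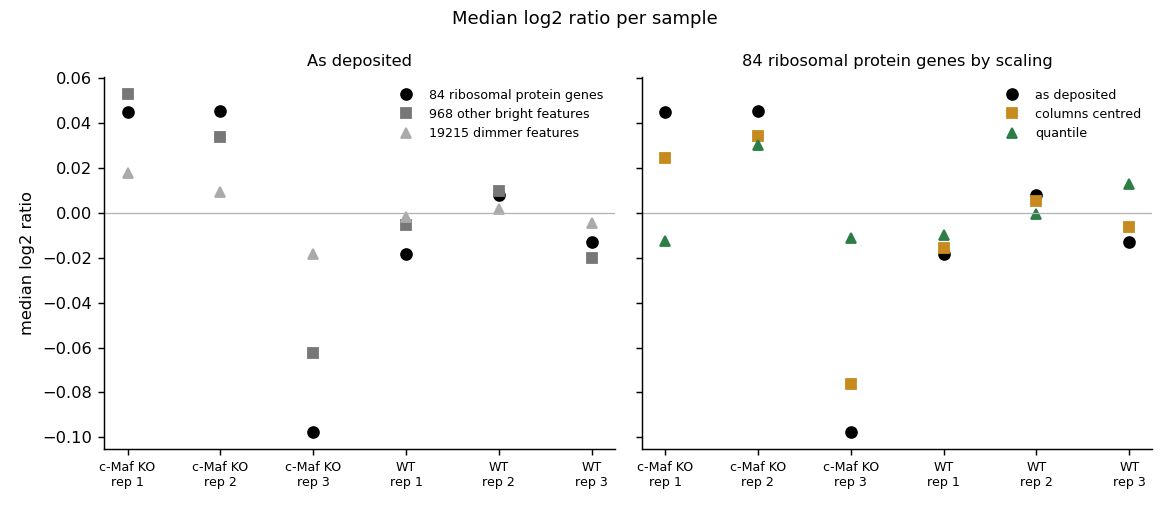
Median log2 ratio (y axis) in each of the 6 samples. On the left, as deposited, the 84 ribosomal protein genes and 968 other bright features are low in c-Maf KO replicate 3 (-0.098 and -0.063), and on the right the same 84 genes are shown under 3 scalings, with -0.011 in that sample after quantile normalization.

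Single probes gave a wider view of each gene. Of the 61 genes with several kept probes, 50 had probe differences within 0.1 of each other and 22 had probes of both signs. Over the 188 kept probes, 15 had all c-Maf KO values above all WT values, against 10.2% of all 28288 kept probes, and 1 had them below, against 9.27%. Of these 15 probes, 13 were not the brightest of their gene. None passed the test over probes (lowest adjusted p = 0.251). The probes named from here were chosen after their values were seen.

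Rps24, a small-subunit protein whose last exons are spliced in several ways, had the probe with that lowest value. This probe measured 0.11, 0.20 and 0.080 in c-Maf KO samples, against -0.080, -0.20 and -0.26 in WT samples. Its groups did not overlap, at a difference of 0.31 (SE 0.074, adjusted p over probes = 0.251). Its mean signal was 13066, against 210033 for the brightest Rps24 probe. The other 3 Rps24 probes had differences of -0.015, 0.011 and 0.034 with overlapping groups. The probe spans a splice junction near the 3′ end of the gene (mm9 chr14:25312695-25315015, plus strand), and the third probe lies upstream of it (chr14:25311190-25312666). Each covers 1477 or more bases of the genome with 60 bases of probe. Both are printed, probe 4 for its bases 1 to 45, because they set the end of 1 transcript form against an upstream part of the gene.
Rps24 probe 4: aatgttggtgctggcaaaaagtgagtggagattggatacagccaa
Rps24 probe 3: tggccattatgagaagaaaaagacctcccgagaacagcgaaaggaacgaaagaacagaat

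The stromal markers were also higher in c-Maf KO, with the medians given above, and their part in the Rps24 reading was not tested. Rpl13a showed a like split among its probes. Its second probe had 0.29, 0.20 and 0.059 in c-Maf KO, against -0.059, -0.13 and -0.076 in WT, a difference of 0.27 (SE 0.079, adjusted p over probes = 0.291). The dimmest had 0.21 (SE 0.064) and the brightest 0.042. The signals of the second probe and the dimmest one were 4576 and 4394, against 62716 for the brightest, and all lie on the minus strand of chromosome 7. The dimmest Rpsa probe had 0.023, 0.27 and 0.060 in c-Maf KO, against -0.034, -0.25 and -0.023 in WT. Its groups lay apart at a difference of 0.22 (SE 0.10, adjusted p over probes = 0.458), while the other Rpsa probes had -0.054, 0.060 and 0.034 with overlap. This dimmest Rpsa probe had a mean signal of 127, against 197061 for the brightest.

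**Figure D4:**
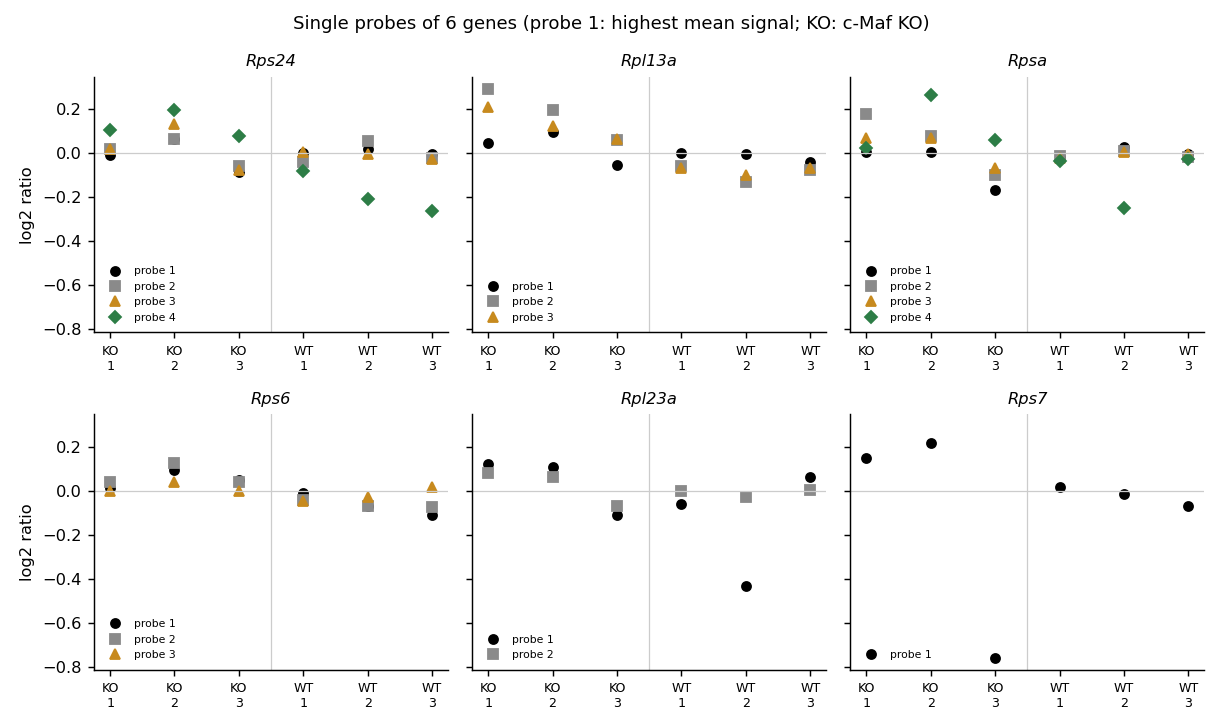
Log2 ratios (y axis) of the kept probes of 6 genes in c-Maf KO samples 1 to 3 and WT samples 1 to 3, with a marker per probe numbered by signal. The fourth Rps24 probe separates the groups (difference 0.31) where the other 3 overlap, and the Rps7 and Rpl23a probes show single low samples at -0.76 and -0.43.

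Other genes of ribosome production and translation were read in the same fit, and none was called. Of the ribosomal proteins outside the name rule, Fau, made as a fusion with a ubiquitin-like protein, had a difference of -0.0024, and Rack1, a scaffold on the small subunit, had -0.015. The 16 other TOP mRNAs, which include elongation factors and Tpt1, had a median difference of 0.044, with 13 positive and no gene with separate groups. The 12 detected regulators of the mTOR and Myc list had a median of 0.0078. Myc had 0.051 (SE 0.069), Larp1 had -8.0e-05 (SE 0.058) and Mtor -0.012 (SE 0.098).

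Genes that build the ribosome had more positive differences than the ribosomal protein genes, by their medians, and this contrast between lists was not tested. Of 36 ribosome biogenesis genes, 32 had a positive difference, with a median of 0.080, and 16 had separate groups with c-Maf KO higher and 0 lower, read against 11.1% and 8.87% of all features. None was called (lowest adjusted p = 0.250). Rrp12, which takes part in the export of both subunits, measured 0.033, 0.28 and 0.12 in c-Maf KO samples, against -0.31, -0.033 and -0.076 in WT samples. The groups did not overlap, at a difference of 0.28 (SE 0.10, adjusted p = 0.358). Tsr1, which acts in the maturation of the small subunit, had a difference of 0.24 (SE 0.075, adjusted p = 0.287), also with separate groups. The nucleolar proteins Ncl and Fbl had 0.10 (SE 0.057) and 0.021 (SE 0.055).

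The 14 genes of RNA polymerase I, which transcribes rRNA, had a median of 0.067, with 11 positive and 5 apart with c-Maf KO higher, where 11.1% of all features were. Taf1a, a subunit of its promoter selectivity factor, measured 0.17, 0.19 and 0.21 in c-Maf KO samples, against -0.31, -0.45 and -0.17 in WT samples. The groups did not overlap, at a difference of 0.50 (SE 0.084, adjusted p = 0.140). Polr1b, a core subunit of the enzyme, had 0.16 (SE 0.078, adjusted p = 0.458). Of 31 initiation factors, 26 were positive with a median of 0.067, and 8 lay apart with c-Maf KO higher (11.1% of all features). Eif2s3x, a subunit of eIF2, which carries the initiator tRNA, had 0.27, 0.13 and 0.053 in c-Maf KO, against -0.75, -0.053 and -0.48 in WT, a difference of 0.58 (SE 0.18, adjusted p = 0.289). Eif2b3, a subunit of the exchange factor of eIF2, had 0.31 (SE 0.074, adjusted p = 0.227).

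Mitochondrial ribosomal proteins, encoded in the nucleus by a separate gene family, had a median difference of 0.077 over 78 genes. Of these, 72 were positive, 27 lay apart with c-Maf KO higher and 0 lower (11.1% and 8.87% of all features), and none was called (lowest adjusted p = 0.293). Mrpl37 measured 0.28, 0.13 and 0.046 in c-Maf KO samples, against -0.046, -0.085 and -0.17 in WT samples. Its difference was 0.25 (SE 0.080), and that of Mrps5 was 0.19 (SE 0.088, adjusted p = 0.437). The medians of the biogenesis list per sample were 0.036, 0.060 and 0.023 in c-Maf KO, against -0.028, -0.043 and -0.033 in WT. For the mitochondrial list they were 0.070, 0.070 and -0.0088 in c-Maf KO and -0.019, -0.029 and -0.031 in WT. Both lists had all c-Maf KO medians above all WT medians, whereas the cytosolic ribosomal proteins had c-Maf KO replicate 3 below WT. Without c-Maf KO replicate 3 the biogenesis median was 0.093 with 22 of 36 apart, and the mitochondrial median was 0.11 with 58 of 78 apart, where 23.6% of all features lay apart with c-Maf KO higher. After quantile normalization the medians were 0.064 for biogenesis and 0.061 for mitochondrial genes, against 0.0026 for the 84 members. Of 8 proliferation markers, 7 were negative with a median of -0.086, and none was called. Without c-Maf KO replicate 1 that median was -0.026, with 3 of 8 positive.

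**Figure D5:**
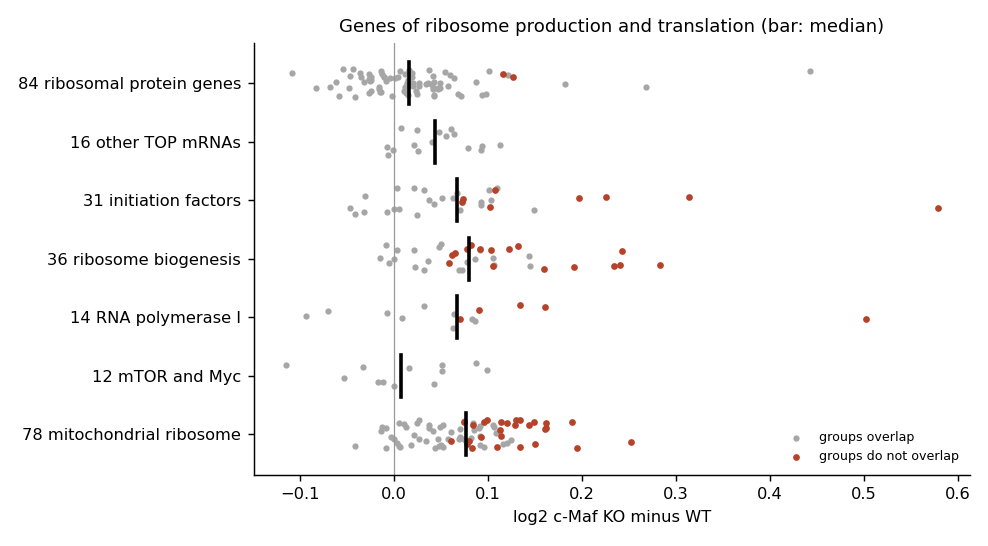
Differences between c-Maf KO and WT (log2, x axis) for single genes of 7 lists in rows, with red points where the 3 c-Maf KO and 3 WT values do not overlap and bars for the medians. The bar is at 0.015 for the 84 ribosomal protein genes, 0.080 for ribosome biogenesis and 0.077 for mitochondrial ribosomal proteins.

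Promoter sequences were set beside these values as a description. RefSeq start sites (GRCm38.p6) were matched for 62 of the 84 genes, with 250 bases before and 50 after the start. A run of at least 8 C or T bases that touched positions -10 to 20 around the start was present in 28 of 62 (45.2%), against 16.7% of all 27025 promoters. The 30 bases around 5 starts with such a run are printed first, with the bases of each such run in capitals, to show its form in core genes of both subunits and a paralogue.
Rps6: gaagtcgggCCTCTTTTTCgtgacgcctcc
Rpl35: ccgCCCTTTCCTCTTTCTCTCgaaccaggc
Rpl38: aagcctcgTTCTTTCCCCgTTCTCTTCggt
Rps10: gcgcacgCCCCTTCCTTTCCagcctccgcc
Rpl22l1: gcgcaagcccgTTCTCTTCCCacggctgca
Against these, the annotated starts of Rpl5 and of the paralogue Rpl39l hold no run of that length, which may differ at other starts of the same gene.
Rpl5: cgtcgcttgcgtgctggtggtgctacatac
Rpl39l: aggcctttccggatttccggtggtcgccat

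Genes with the run had a median difference of 0.015 (28 genes) and those without it 0.021 (34 genes). Their medians in c-Maf KO replicate 3 were -0.093 and -0.098. Over the whole window and both strands, CCGGAAG, the core of sites for ETS factors, was found in 24 of 62 promoters (38.7%), against 9.12% of all. AAGATGG, a core of YY1 sites, was in 9 (14.5%, against 6.48%), and TATAAA, the TATA box, in 6 (9.68%, against 14.2%). TGCTGAC, part of the Maf recognition element, was in 0 of 62, against 4.58% of all promoters. No match says only that these letters are not in these windows.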

How the data were processed

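RNA of 3 c-Maf KO and 3 WT samples was measured on 1-colour Agilent arrays. The scanner files, used for 5 samples, hold spot intensity values that the authors obtained with Agilent Feature Extraction 10.7.3.1, per the submitters' processing notes. The authors' deposited value table holds a linear ratio for all 6 samples. On 25402 probes its log2 values followed the scanner intensities scaled to each array's 75th percentile (r = 1), which settles scale and direction. For this, both were centred on the probe's mean over the 5 arrays. In the value table, the largest absolute median of a probe over the 6 samples was 4.8e-07 on the log2 scale. For c-Maf KO replicate 1 only the value table was used. Control and flagged spots were left out, and array gene names were updated through RefSeq accessions. A gene's brightest probe entered if at least 2 of 5 arrays had it well above background, giving 20267 features. The log2 ratios were tested with limma 3.58.1 (R 4.3.3) over all features with Benjamini-Hochberg adjustment, and scaled log2 intensities of the 5 arrays likewise. The fit was also run on simulated data with independent noise and changes larger than the difference of any member. That run cannot show what would be detected at the sizes seen here. The number of arrays limits the precision.

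The members, the gene lists and the tests were chosen with earlier results of these data known. Genes named were members fixed by name, the 6 brightest and 4 dimmest members, members with separate groups, and up to 2 such genes of each list; others are said to be chosen later. Marker lists for other cells gave no call: hepatocyte (2 of 6 detected, median difference 0.019), erythroid (2 of 6, 0.045), mast cell (3 of 6, -0.62) and T and B cell (4 of 6, -0.095). Marker genes named by the rule were Fcgr1 (-0.44), Lyz2 (0.33), Col3a1 (1.00), Col1a2 (0.94) and Tpsb2 (-0.25). Alternatives were other filters, quantile normalization, normexp (offset 50), centred columns, other probe rules, eBayes with trend and robust (statmod 1.5.0), array weights, a replicate block, other thresholds and each replicate left out. The 5 arrays lay on one slide with WT and c-Maf KO in different rows, and genotype and row cannot be told apart. Single values of a few genes are not reported here; the counts and medians include them.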

Additional observations from a re-analysis of the deposited data

How the results depend on the processing

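The count of called ribosomal protein genes stayed at 0 under every alternative run on the value table and on the 5 arrays. Their median difference ranged over the alternatives between -0.016 and 0.065 in the value table, both in settings that lack 1 c-Maf KO replicate. On the 5 arrays, which already lack c-Maf KO replicate 1, it ranged between -0.079 and 0.055. Both of those ends leave out another c-Maf KO replicate and set 1 c-Maf KO array against 3 WT arrays. Of 51 named genes followed, 24 had a difference of the other sign under at least 1 alternative, all without a call. The number of all features called moved most: against 7 in the value table it was 25 at an adjusted p under 0.1, 2 with no filter on dim probes, 22 with probes above background on all 5 arrays, 0 with the second brightest probe, 83 with trend and robust eBayes and 3 with the replicate block. With a replicate left out it was 2 to 97, the highest without WT replicate 1. Against 7 on the 5 arrays it was 2 with no filter, 1 with all 5 arrays above background, 2 with the second probe, 80 with trend and robust eBayes, 22 with normexp, 0 with the replicate block and 0 to 14 with a replicate left out. The cause was not tested. Members with separate groups were 2 higher and 0 lower in c-Maf KO in the value table (11.1% and 8.87% of all features). After quantile normalization 5 were lower (10.4%), with probes averaged per gene 6 were higher (10.9%), and with centred columns 5 were higher (11.7%). On the 5 arrays 3 were lower (16.1%). With a replicate left out they were 2 to 49 higher and 0 to 2 lower, the 49 without c-Maf KO replicate 3 (23.6% of all features). On the 5 arrays, with 3 and 3, they were 12 higher and 6 lower after quantile normalization, 8 higher with the mean of probes, 11 higher and 1 lower with normexp, 11 higher with the percentile over detected probes, and 3 to 49 higher and 3 to 57 lower with a replicate left out, the extremes without c-Maf KO replicate 3 (31.9% of all features higher) and without c-Maf KO replicate 2 (33.0% lower). The Maf call was lost with its second probe in the value table (adjusted p = 0.0610) and on the 5 arrays with no filter, the replicate block and any WT replicate left out. Deviations of same-numbered samples from their group means had correlations of r = -0.028, -0.060 and 0.040. These values cannot settle whether the numbers pair samples, and the main fit treated the samples as unpaired. The count over single probes and the scalings per sample were chosen after seeing the data.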
